A study of Mus musculus with 2 samples.

Results

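The peaks described here are the CTCF binding sites that lie inside introns of protein-coding genes of ordinary length in the embryonic mouse liver. A peak was counted when its summit, the base of highest signal, lay in a protein-coding gene of at most 200 kb and in none longer, outside all exons, and more than 1 kb from every annotated transcript start and every 3' end of a protein-coding gene. This rule used position only, on build mm10 with GENCODE release M21, and no signal or sequence. It took 13329 of the 50909 peaks in the authors' optimal list, which is 26.2%. For comparison, 4708 peaks lay by the same margins in introns of genes over 200 kb, and 12396 lay between genes but within 50 kb of one.

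CTCF was mapped by chromatin immunoprecipitation with sequencing (ChIP-seq), which recovers DNA fragments bound by a protein. The only group was liver of B6NCrl mouse embryos aged 14.5 days, of mixed sex, with no treatment or mutation named in the labels. Per the labels, the organs were pulverised and pooled over several dissections, so cell types of the fetal liver are mixed and the share of each is unknown. The labels number the 2 libraries as biological replicates but give both the same biosample of pooled livers. They are called replicates here, and it could not be settled whether their spread, in every SD below, holds more than the differences of library making and sequencing.

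CTCF is a DNA-binding protein with a row of zinc fingers that reads a long motif in 1 direction. On chromosomes it stops cohesin, the ring complex that extrudes DNA loops, and loops often form between motifs that point towards each other. In rodents, B2 retrotransposons are known to carry a CTCF motif and to have spread binding sites through the genome. In the embryo the liver also makes blood, and red cell precursors are abundant in it.

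The signal of a peak is the value the authors' peak caller gave it, on an unstated scale, and values were set side by side only inside the same list. To obtain a value in each library, the signal of its own peak within 100 bp was taken as a multiple of the median over its 50909 strongest peaks. That ratio is called relative signal. Of the intronic peaks, 12565, or 94.3% (Wilson 95% interval 93.9 to 94.7), had a peak in both replicates' full lists. Among the strongest peaks of both replicates were 77.1%. Over all optimal peaks on chromosomes these shares were close to that, at 93.5% and 76.7%. The optimal list was itself thresholded on both replicates, so high shares were favoured in advance. Over the 12565 peaks, the relative signals of both replicates had a Spearman's rho of 0.845, given as a description because both libraries share 1 biosample and peaks are not independent. Intervals of shares and of their differences cover counting error only, and no test was run between classes of peaks.

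The sequence that most intronic peaks shared was the core CTCF motif, 14 bases long, whose fixed letters are CCANNAGNNGGCNN. Either of a pair of bases was allowed at each N. Both strands were searched within 50 bp of the summit, and at most 2 mismatches counted as a match. Below are 40 bases around the best match at strong intronic peaks, several of them in blood and liver genes, with the match in capitals, read on the strand of the motif. They show how much the match varies among strong sites. All were read from the RefSeq copy of mm10.
Pink1, chr4:138319705-138319744, plus strand, 0 mismatches: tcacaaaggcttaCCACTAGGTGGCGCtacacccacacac
Trim58, chr11:58643585-58643624, minus strand, 0 mismatches: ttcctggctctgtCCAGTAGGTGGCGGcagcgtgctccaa
Jak2, chr19:29253960-29253999, minus strand, 0 mismatches: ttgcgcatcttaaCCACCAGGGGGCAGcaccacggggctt
Fam129b, chr2:32912583-32912622, plus strand, 1 mismatch: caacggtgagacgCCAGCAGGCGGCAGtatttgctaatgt
Nfe2, chr15:103250367-103250406, plus strand, 1 mismatch: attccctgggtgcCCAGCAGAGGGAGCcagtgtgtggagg
Cdkn1a, chr17:29095621-29095660, minus strand, 1 mismatch: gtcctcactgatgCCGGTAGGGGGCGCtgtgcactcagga
Hnf4a, chr2:163535075-163535114, plus strand, 2 mismatches: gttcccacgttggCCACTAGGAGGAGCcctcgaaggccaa

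A second kind of match came up again and again at intronic peaks, nearly always in sequence that the reference genome marks as repeat. Its most common form was found at 850 intronic peaks. The first line below is the most common base at each position around those 850 matches. The next lines are the 3 strongest intronic peaks with that form and the strongest peak of Hdac1 with a close relative of it, chosen after their values were seen, to show where the sequence beyond the capitals is shared and where it differs. Their signals were 383, 373, 340 and 247.
Most common base, 850 peaks: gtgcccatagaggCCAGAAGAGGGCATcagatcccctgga
Tmprss9, chr10:80876212-80876251, minus strand: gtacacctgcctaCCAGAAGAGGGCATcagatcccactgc
Nsd3, chr8:25627422-25627461, minus strand: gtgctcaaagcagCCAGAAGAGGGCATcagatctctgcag
4930523C07Rik, chr1:160062170-160062209, minus strand: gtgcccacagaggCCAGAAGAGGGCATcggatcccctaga
Hdac1, chr4:129540186-129540225, plus strand: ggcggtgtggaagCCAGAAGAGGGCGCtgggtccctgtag

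Most intronic peaks sat on the motif. A match lay near 10016 of 13329 summits, or 75.1% (interval 74.4 to 75.9), with 68.2% in replicate 1 and 77.1% in replicate 2, a mean of 72.6 ± 6.27% (SD, n = 2). As background, 2.24% of tiles as long as the searched window, cut end to end from the same intron sequence, held a match. The centre of the match lay a median of 6.50 bp from the summit, and 87.0% of matches lay within 20 bp. In introns of genes over 200 kb the share was 77.7%, a difference of -2.57 points (Newcombe 95% interval -3.96 to -1.16). Between genes it was 78.4%, a difference of -3.28 points (-4.31 to -2.25). Both replicates had both differences in the same direction. Over all optimal peaks on chromosomes, intronic ones included, the share was lower, at 70.8% (70.4 to 71.2), with 63.8% and 73.9% in the replicates.

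Signal was graded by the match. The median signal was 219 at the 1287 intronic peaks with a perfect match. The 4129 with 1 mismatch had a median of 99.3, the 4600 with 2 mismatches had 57.2 and the 3313 with no match had 35.0. Each replicate's own intronic peaks were graded in the same way, with medians given as multiples of the median of its strongest peaks. These were 3.74, 1.65, 0.952 and 0.545 in replicate 1 and 3.12, 1.42, 0.811 and 0.518 in replicate 2. The order was thus the same in both libraries. The grades overlapped widely. The upper 10% of peaks with no match began at a signal of 143, and the lower 10% of peaks with a perfect match ended at 58.4.

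**Figure D1:**
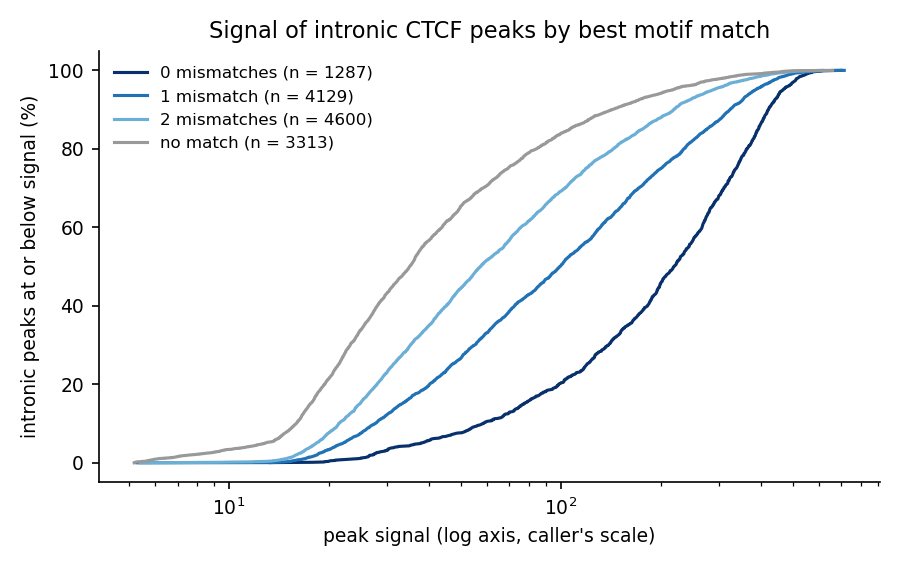
Cumulative share of intronic CTCF peaks (percent) against peak signal on a log axis, for peaks whose best motif match had 0, 1 or 2 mismatches and for peaks with no match. The curves are ordered by grade, with medians of 219, 99.3, 57.2 and 35.0, and their ranges overlap.

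When the intronic peaks were put in order of signal and divided into classes of 20% each, the share with a match was 92.0%, 85.8%, 77.9%, 69.1% and 50.8% from the strongest class to the weakest. Over the same classes, the share of matches in repeat-masked sequence was 15.5%, 32.0%, 43.0%, 48.6% and 52.5%. The weakest class was also the least supported, since 48.3% of its peaks were in the conservative list, against 100% of the strongest class. Pooled over the number of mismatches, matches in repeats and matches outside them thus sat at different strengths. Among motif copies within 50 bp of an intronic summit, 145 of 3879 in repeats were free of mismatches, against 1147 of 6913 outside. Repeat-masked matches had a median signal of 55.4 (3614 peaks) and unmasked matches 114 (6402 peaks). For each replicate's own intronic peaks, the medians as multiples of its list median were 0.847 ± 0.138 and 1.74 ± 0.0800 (SD, n = 2). The part of mismatch number in this gap was not tested.

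Among the strongest intronic peaks, the highest signal was 714, in intron 5 of Fam129b on chromosome 2 at 32912366 to 32912808, with relative signals of 12.4 and 9.40 in replicates 1 and 2. Pink1, which encodes a mitochondrial kinase that marks damaged mitochondria for removal, held the next in intron 3, on chromosome 4 at 138319517 to 138319934. Its signal was 699 and its relative signals were 12.3 and 8.99. Col18a1, a collagen gene and the source of endostatin, had 644, and Nfix, a nuclear factor I transcription factor gene, with 639.

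A further 7 of the 12 strongest lay between 608 and 616. They were in Gm20219, a short predicted gene, in Ccdc88c, a regulator of Wnt signalling, in the kinase gene Lmtk3, in Emid1, in Ethe1, which encodes a mitochondrial sulfur dioxygenase, in Mbp, the gene of myelin basic protein, and in Dnah17, an axonemal dynein gene. Mean relative signals of these 12 peaks ran from 9.11 ± 1.23 at Dnah17 to 10.9 ± 2.13 at Fam129b (SD, n = 2). Replicate 1 gave the higher relative signal at all 12, so these SDs hold an offset shared by the peaks and do not measure how well the order held. By rank in the full lists of replicates 1 and 2, Fam129b was 3 and 3, Pink1 7 and 7 and Col18a1 26 and 27. Lower down the ranks differed more, with Ethe1 at 30 and 70. Dnah17 ranked 126 in replicate 1 and 23 in replicate 2 and had no match with up to 2 mismatches. At Lmtk3 the match was free of mismatches and lay in repeat-masked sequence.

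The motif is common in introns and only some copies were bound, so every copy in the same intron sequence was counted, 122164 in all with up to 2 mismatches. A copy was called occupied when the summit of an intronic peak lay within 50 bp, even where a better copy lay at the same peak. Occupied copies thus numbered 10792, against 10016 intronic peaks with a match. With 2 mismatches there were 5318 occupied copies, against 4600 peaks with that as their best match. Of 1490 copies free of mismatches, 1292 were occupied, or 86.7% (interval 84.9 to 88.3), with 81.7% in replicate 1 and 88.1% in replicate 2. With 1 mismatch the share was 33.6% of 12453 copies, with 29.6% and 35.1% in the replicates. With 2 mismatches it was 4.91% of 108221 copies, with 4.34% and 5.23%. The steps between grades were far larger than the spread between replicates.

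Of the 198 perfect copies at no intronic peak, 96 had a summit in the full list of at least 1 replicate and 33 in both full lists, which hold 300000 peaks each and are not filtered. The rest had none. For perfect copies the occupied shares in and outside repeats had overlapping intervals, with 82.4% (145 of 176, interval 76.1 to 87.3) in repeats and 87.3% (1147 of 1314, interval 85.4 to 89.0) outside them. With 1 mismatch, pooled over its position, the shares were 32.1% in repeats and 34.4% outside, a gap smaller than the difference between the replicates. In replicates 1 and 2 the share in repeats was the lower, at 27.2% and 34.8% against 30.9% and 35.3%.

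The occupied share also varied with the position of the mismatch. Positions are counted from 1 at the 5' end of the motif, and the copies are the 8048 outside repeats with a single mismatch. A mismatch at position 2, a fixed C, left 8 of 375 copies occupied, or 2.13% (interval 1.08 to 4.15). At position 7, the fixed G of the AG pair, 16 of 587 were occupied, or 2.73% (1.68 to 4.38). Of all unmasked copies with 2 mismatches, 4.35% (4.20 to 4.51) were occupied. The interval of position 2 lay below this one, and that of position 7 overlapped it. Position 8 followed with 9.31% of 204 copies and position 10, the leading G of the GGC, with 11.4% of 437.

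Other positions tolerated a mismatch far better. With the mismatch at position 14, the last, 287 of 438 copies were occupied, or 65.5% (interval 61.0 to 69.8), with 58.4% and 66.4% in replicates 1 and 2. At position 5 the share was 60.5% of 607 copies, and at position 3, although its A is a fixed letter, it was 55.5% of 708. The remaining positions lay between 27.1% at position 11 and 42.0% at position 1. Replicate values differed by at most 9.71 points at any of the 14 positions, which is less than the range from 2.13% to 65.5%. Copies were pooled over the base they carried at the mismatched position, so a share can hide differences between bases. With masked copies added, the share was lower at each of the 14 positions. It went from 42.0% to 26.7% at position 1 and from 60.5% to 49.0% at position 5. Position 5 held 2997 copies with masked ones added, against 607 outside repeats.

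**Figure D2:**
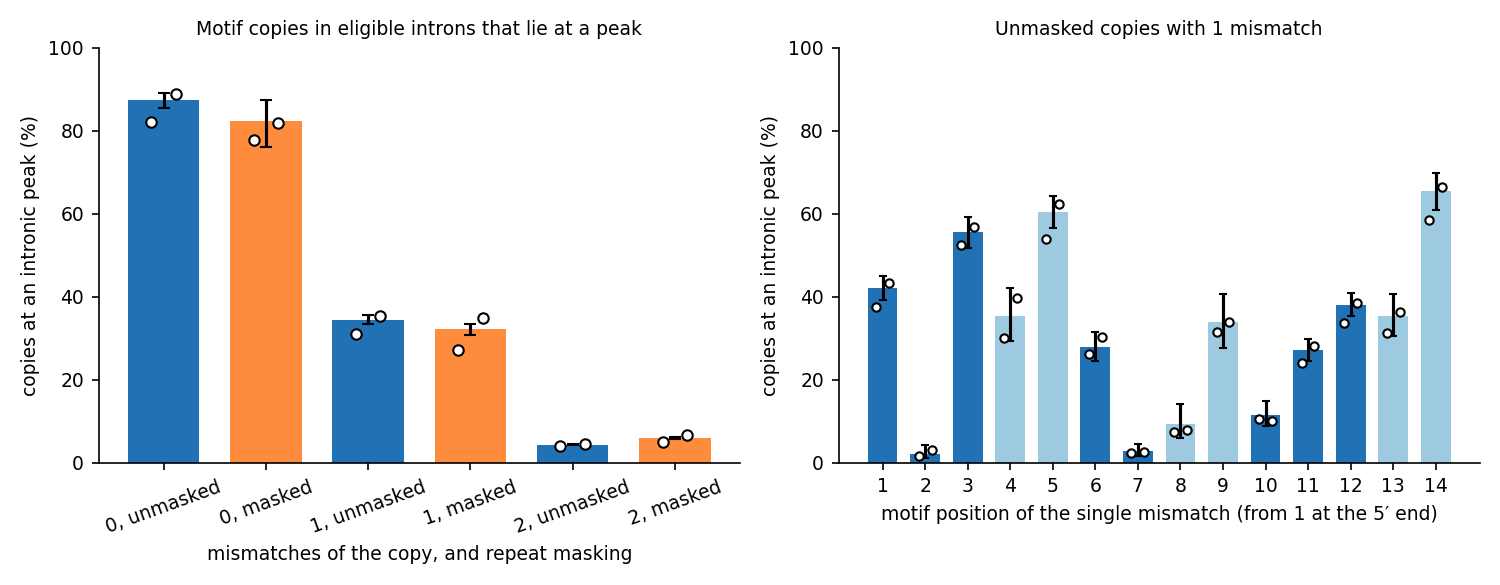
Share of core motif copies in eligible intron sequence that lie within 50 bp of an intronic peak summit (percent), left by number of mismatches and repeat masking, right for unmasked copies with 1 mismatch by its position, with positions of a fixed letter in dark blue and others in light blue. Bars are the optimal list with Wilson 95% intervals and circles are the 2 replicates; the share falls with each mismatch, and positions 2 and 7 have the lowest bars, at 2.13% and 2.73%.

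Intronic peaks lay in repeats more often than peaks in introns of long genes or between genes. The summit base was repeat-masked at 31.5% of intronic peaks (interval 30.7 to 32.3), against 22.3% in introns of genes over 200 kb and 26% between genes. These differences were 9.24 points (Newcombe interval 7.79 to 10.6) and 5.57 points (4.46 to 6.67). They were 7.65 and 9.59 points in replicates 1 and 2 against the long genes, and 4.10 and 6.50 points against the intergenic peaks. Of the eligible bases, 30.3% were masked in these introns, 28.6% in introns of long genes and 41.7% between genes.

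Some forms of the match recurred many times. The 10016 matches, in repeats and outside, held 2717 distinct forms, 1595 of them seen at a single peak, yet 8 forms made up 22.6% of matches. The most common were these, shown with the number of intronic peaks that hold each.
850 peaks: CCAGAAGAGGGCAT
494 peaks: CCAGAAGAGGGCAC
302 peaks: CCAGAAGAGGGCGC
289 peaks: CCAGAAGAGGGCGT
128 peaks: CCAGAAGAGGGCAG

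All 5 share the stem ccagaagagggc, and in each form at least 99.3% of the matches lay in masked sequence. Matches of that stem made up 21.7% of intronic matches (2169 of 10016, interval 20.9 to 22.5), with 19.4% and 23.4% in replicates 1 and 2. In introns of long genes the share was 13.9%, a difference of 7.80 points (6.39 to 9.15), and between genes it was 16.9%, a difference of 4.75 points (3.65 to 5.84). By contrast the most common form outside repeats, ccaccagggggcag, was found at 57 intronic peaks. The repeat family was not identified here, since masking was read from lower-case bases and no repeat annotation was used.

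Similarity continued beyond the 14 bases. Around the 850 matches of the most common form, the most frequent base was shared by a median of 45.1% of peaks over the 40 positions on each side, against 27.2% around unmasked matches. The agreement was higher around the recurrent form at all 80 of these positions. It reached 89.6% at 1 upstream position and 86.4% at 1 downstream position. The copies were not identical, since the 850 windows of 40 bases held 836 distinct sequences. Around unmasked matches the same upstream position, 12 bases before the first base of the match, had the highest agreement outside it, at 46.6%.

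**Figure D3:**
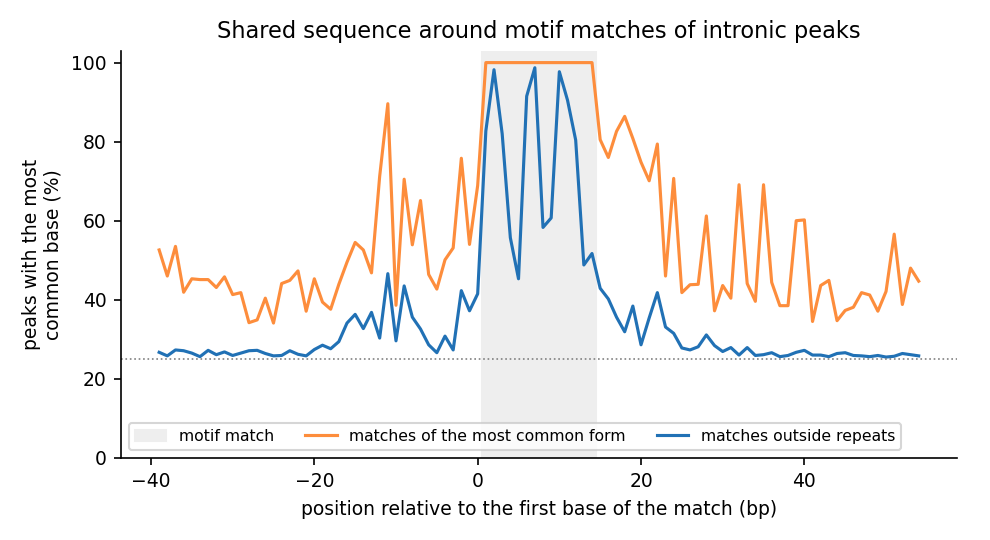
Share of intronic peaks that carry the most common base at each position (percent) against position relative to the first base of the motif match (bp, where 1 is its first base), for the 850 matches of the most common form and the 6402 matches outside repeats. The dotted line marks equal use of all bases; agreement around the recurrent form stays above that around unmasked matches on both sides, with medians of 45.1% and 27.2%.

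Occupancy of the recurrent forms fell with the number of mismatches, but differed among forms with the same number. The most common form, ccagaagagggcat, departs from the motif at positions 5 and 14. It had 12057 copies in the introns and 883 were occupied, or 7.32% (interval 6.87 to 7.80), with 5.35% and 8.73% in the replicates. The form ccagaagagggcac departs at position 5 only, and 38.8% of its 1276 copies were occupied. For ccagaagagggcgc, also with position 5 alone, the share was 55.4% of 545 copies, while for ccagaagagggcgt, with positions 5 and 14, it was 9.95% of 3004. A form free of mismatches, ccagcagagggcag, found both in repeats and outside, was occupied at 67 of 79 copies, or 84.8%. So the form seen at most peaks was the one with the lowest occupied share of those named, and it led by its number of copies.

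The recurrent forms held 2 pairs of mismatches. For the pair at positions 5 and 14, the occupied share differed among sets of copies. Copies with mismatches at positions 5 and 14 were occupied in 35.8% of 243 cases outside repeats (interval 30 to 42.0). In masked sequence without the stem the share was 23.6% of 1053 copies, and for the stem it was 8.14% of 15300 (7.72 to 8.59). The replicates gave 32.9% and 37.9%, 20.2% and 26.1%, and 6.18% and 9.50% for these 3 sets, so their ranges did not overlap. For the other pair, positions 5 and 12, 134 of 1195 copies were occupied outside repeats (9.55 to 13.1%). Of masked copies without the stem, 150 of 1286 were occupied (10 to 13.5%), so these intervals overlapped. Of the recurrent form with that pair, ccagaagagggtgc, which lacks the stem, 66 of 258 copies were occupied, or 25.6% (20.6 to 31.2). The replicates gave 22.1% and 27.5% for that form. Its masked copies are among the 1286, so it is not a separate set. It was also picked for its number of peaks, which favours a high occupied share. The sources used here do not say how reads from near-identical copies were mapped, and its part in the low share of the stem was not tested.

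Intronic peaks were spread over many genes. At least 1 lay in 6653 of 20940 protein-coding genes of at most 200 kb, or 31.8%. Among the 17659 with any eligible intron sequence the share was 37.7%. Of the host genes, 51.2% held 1 peak, 24.7% held 2, 10.9% held 3 and 13.3% held 4 or more. This last class contained 35.2% of all intronic peaks. The genes of 256 peaks overlapped, and 110 of these peaks lay in genes of both strands.

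B3glct, which encodes a glucosyltransferase of the endoplasmic reticulum, and Fig4, a phosphoinositide phosphatase gene, held the most in the optimal list, with 14 peaks each. B3glct, on chromosome 5 at 149678230 to 149762599, had a match at 10 of its 14 peaks, 7 of them in repeats, and 11 and 13 peaks in replicates 1 and 2. Fig4, on chromosome 10 at 41188172 to 41303260, had a match at 5 of 14 and a median signal of 28.2, with 12 and 11 peaks in the replicates. Ksr1, a scaffold of the Ras and MAP kinase pathway, held 13 peaks, 7 of them in its first intron. Clmn, the Wnt co-receptor gene Lrp5, Mdga1, the prolidase gene Pepd and the tRNA-modifying enzyme gene Tyw1 held 12 each. The order changed between libraries, since Pepd held 14 peaks in replicate 1 and 10 in replicate 2, and Tyw1 held 11 and 12. In these 8 genes the density was 10 to 18.7 peaks per 100 kb of eligible sequence, against 2.88 per 100 kb over all eligible introns. The genes were picked for their counts, so this is a description.

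Density followed the architecture of the gene. Eligible intron sequence of genes up to 200 kb came to 463 Mb and held 28.8 peaks per Mb, against 11.8 per Mb over the 400 Mb in introns of longer genes and 24.4 per Mb over the 509 Mb between genes. Genes of up to 20 kb held 39.8 intronic peaks per Mb, those of 20 to 50 kb held 34.1, those of 50 to 100 kb held 28.8 and those of 100 to 200 kb held 22.7. Introns of up to 5 kb held 35.6 per Mb and introns over 50 kb held 20.3. Within 500 bp of an exon lay 20% of the peaks and 17.1% of the eligible bases, which is 33.7 per Mb.

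Peaks were also denser and stronger towards the end of the gene. From the start to the end of the gene in 5 equal lengths, the density was 26.4, 26.6, 28.0, 31.2 and 32.6 peaks per Mb. The median signal over the same lengths was 53.8, 60.5, 68.2, 72.2 and 84.7, and the share of matches in repeats was 41.9%, 39.6%, 36.5%, 33.6% and 29.7%. The first intron held 26% of peaks (interval 25.3 to 26.8) and 27.8% of eligible bases, with 26.4% and 26.1% in replicates 1 and 2. Its density was 26.9 per Mb, against 29.5 in middle introns and 27.8 in the last, and its peaks had a median signal of 54.1, against 70.4 and 77.4. Among chromosomes with intronic peaks, the density ran from 12.7 per Mb on X to 38.5 per Mb on chromosome 11. At the limit of length, genes of 180 to 200 kb held 409 intronic peaks in 140 host genes with a median signal of 57.5. Genes of 200 to 220 kb held 417 in 118 host genes with a median signal of 58.6.

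**Figure D4:**
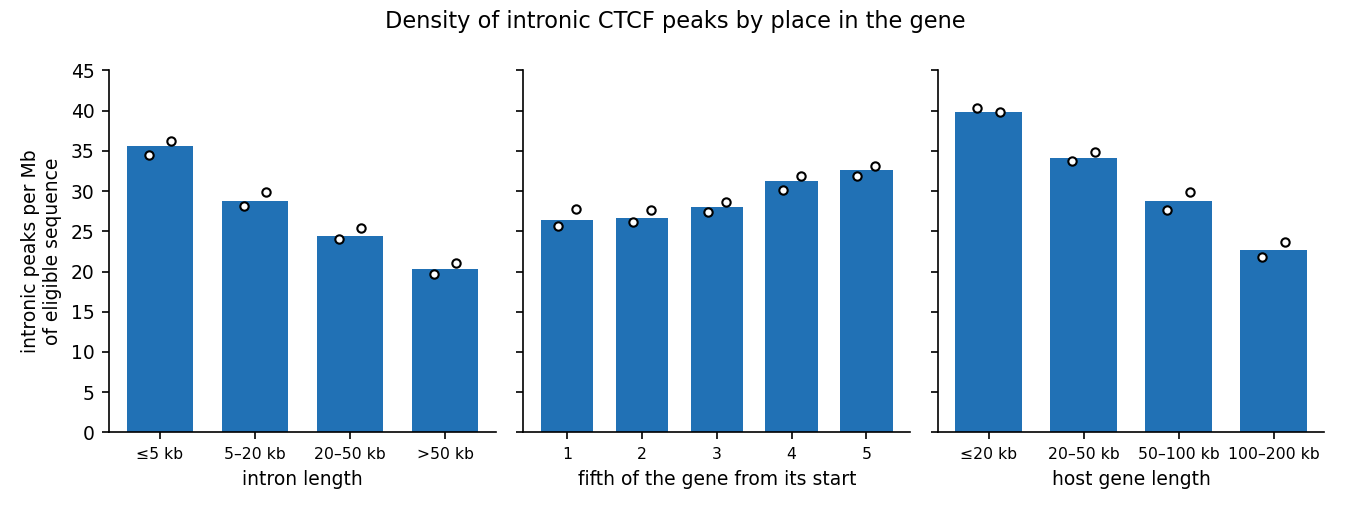
Intronic CTCF peaks per Mb of eligible sequence by intron length, by position along the gene in 5 equal lengths from its start, and by host gene length. Bars are the optimal list and circles the 2 replicates; density is lower in longer introns and longer genes and higher towards the end of the gene, at 26.4 per Mb in the first length and 32.6 per Mb in the last.

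Genes with an intronic peak also had a promoter peak more often. An optimal peak lay within 1 kb of an annotated start in 47.0% of the 6653 host genes, against 31.5% of the 11006 genes with eligible sequence and no intronic peak, a difference of 15.4 points (Newcombe interval 14 to 16.9). The difference was 17.0 points for genes with up to 5 kb of eligible sequence, 12.4 for 5 to 20 kb, 15 for 20 to 50 kb and 17.5 for 50 to 200 kb. Host genes had a median of 4 annotated starts and the others 3. With only the outermost start of each gene, the shares were 35.1% and 25.5%, a difference of 9.57 points (8.17 to 11.0).

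Motifs at intronic peaks showed no detectable preference for the strand of the gene as a whole, but matches in repeats and outside them leaned in different directions. On the strand of the gene lay 49.3% of matches (4894 of 9930, interval 48.3 to 50.3), with 48.6% and 49.9% in replicates 1 and 2. In repeats the share was 53.4% (51.8 to 55.0), with 52.7% and 54.0% in the replicates. Outside repeats it was 47.0% (45.7 to 48.2), with 46.5% and 47.4%. The difference was 6.42 points (Newcombe interval 4.38 to 8.46).

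These leanings were present in the intron sequence itself. Of all unmasked copies in the introns 46.7% were on the strand of the gene, and of those at no intronic peak also 46.7%. Of all masked copies the share was 52.2%. Copies of the stem ccagaagagggc stood out with 60.6%, and there the occupied ones differed, with 55.4% (53.3 to 57.4), against 61.4% (60.6 to 62.1) of those at no intronic peak. In the strongest 20% of intronic peaks 45% of motifs were on the strand of the gene, with 45% and 45.6% in replicates 1 and 2.

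Within 1 gene, neighbouring intronic peaks with a match formed 4349 pairs, a median of 10636 bp apart. Their motifs pointed towards each other in 23.2% of pairs (interval 21.9 to 24.5), away from each other in 23.5% and the same way in 53.4%. The replicates gave 23.0% and 23.3% convergent pairs. Convergent pairs made up 21.1% (18.7 to 23.6) of pairs 1 to 5 kb apart and 29.3% (24.3 to 34.7) of the 294 pairs over 50 kb apart. Divergent pairs made up 24.3% and 18.0% (14.1 to 22.8) of the same classes. Over 50 kb the replicates gave 31.6% and 29.9% convergent and 15% and 18.1% divergent, so convergent pairs were the more common in both.

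**Figure D5:**
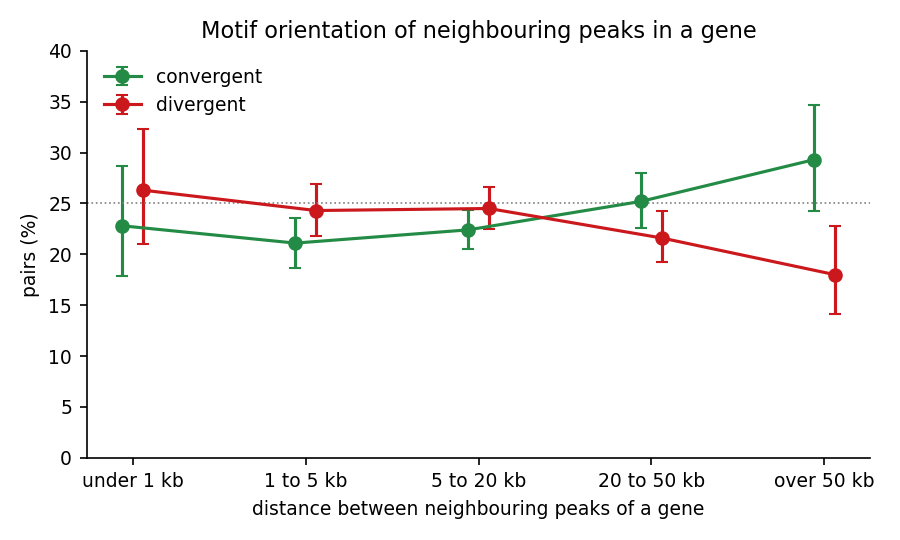
Share of neighbouring intronic peak pairs of a gene whose motifs point towards each other (convergent) or away from each other (divergent), in percent, by the distance between the summits. Points are the optimal list with Wilson 95% intervals and the dotted line marks 25%; convergent pairs are the fewer below 20 kb and the more common over 50 kb, at 29.3% against 18.0%.

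Genes of 11 lists, grouped by function or cell type, were then looked up. The background was the 31.8% of all genes and the 28.8 peaks per Mb of all introns. Expression of the listed genes was not measured in the files used here. Erythroid genes, those of red cell development and the red cell membrane, held an intronic peak in 21 of 36 cases, or 58.3% (interval 42.2 to 72.9), with 22 and 20 genes in replicates 1 and 2. They held 59 peaks, or 61.3 per Mb. The median signal of these peaks was 45.7 and 62.7% had a match, against 67.1 and 75.1% over all intronic peaks. The median erythroid gene had 9.05 kb of eligible sequence, against 8.82 kb for all genes. Epb41, which encodes protein 4.1 of the membrane skeleton, held 10 of the 59 peaks.

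The strongest erythroid peak was in intron 2 of Trim58, a ubiquitin ligase gene of red cell maturation, on chromosome 11 at 58643437 to 58643766. Its signal was 508, its relative signals were 8.88 and 6.56, and its match, shown above, was free of mismatches. Nfe2, a subunit of a transcription factor of red cells and platelets, followed with a signal of 503 in intron 2 and relative signals of 8.82 and 6.16. The strongest peak of Epb41 had a signal of 448 and relative signals of 7.69 and 5.84.

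Genes of heme synthesis and iron handling held an intronic peak in 13 of 30 cases, or 43.3% (27.4 to 60.8), with 41.1 peaks per Mb and a median signal of 97.5. Trf, the transferrin gene, led with a signal of 419 and relative signals of 7.48 and 5.12. It lies within a longer predicted gene, Gm20425, and is also in the hepatocyte list. Steap3, a reductase gene of iron uptake in red cell precursors, had 374 and relative signals of 6.83 and 4.41.

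Hepatocyte genes were near the background, with a peak in 12 of 40, or 30% (18.1 to 45.4), and 28.4 peaks per Mb. Hnf4a, a transcription factor gene of hepatocyte identity, held the strongest in its first intron, with a signal of 421 and relative signals of 7.32 and 5.31. Genes of blood stem cells and other blood cells had a peak in 14 of 28, with 13 and 14 genes in replicates 1 and 2, and held 33.3 peaks per Mb. Beside Nfe2, the strongest were at Spi1, which encodes the factor PU.1, with 427, and at Vwf, the von Willebrand factor gene, with 387.

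Cell cycle genes had a peak in 16 of 38, or 42.1% (27.9 to 57.8), with 48.0 per Mb. Ccnd3, the cyclin D3 gene, held 6 intronic peaks, and the strongest, in its first intron, had a signal of 507 and relative signals of 9.43 and 5.91. Cdkn1a, the gene of the kinase inhibitor p21, had 451, and the cyclin gene Ccnd2 had 214. Genes of signalling in the fetal liver had a peak in 20 of 27, and chromatin remodelling genes in 21 of 30, but their median eligible sequence was 48.0 kb and 40 kb, and their densities of 26.2 and 31.3 per Mb were close to the background. Jak2, the kinase of the erythropoietin receptor, had the strongest signalling peak, with a signal of 495 and relative signals of 8.78 and 6.12, ahead of the Wnt effector genes Tcf7l2 with 357 and Lef1 with 263. Chromatin genes with strong peaks included Mta1, a subunit of a deacetylase complex, with 426, and the deacetylase gene Hdac1 with 247. The match at Hdac1, shown above, carries the recurrent stem.

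Genes of cohesin and of CTCF partners had a peak in 8 of 25, or 32.0% (17.2 to 51.6), and with 18.1 peaks per Mb were the sparsest of the 11 lists in the optimal list. Replicates 1 and 2 gave 9 and 11 genes. The strongest were at Adnp, a zinc finger gene that overlaps the predicted gene Gm20716, with a signal of 508, and at Ctcfl, the germline paralogue of CTCF, with 327. At Zfp143, a zinc finger factor gene, the signal was 167, with relative signals of 1.39 in replicate 1 and 3.31 in replicate 2.

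Endothelial and mesenchymal genes had a peak in 13 of 23, or 56.5% (36.8 to 74.4), with 10 and 13 genes in replicates 1 and 2. Their median eligible sequence was 25.6 kb, and their density of 30.3 peaks per Mb was close to the background. They were led by the receptor genes Flt1 with a signal of 300, Pdgfrb with 258 and Flt4 with 171, and Flt1 held 8 peaks. Splicing genes had a peak in 10 of 26, or 38.5% (22.4 to 57.5), with 7 and 9 genes in the replicates and 35.7 peaks per Mb. The strongest were at Mbnl1 with 339, Mbnl2 with 200 and Tra2a with 132. Genes of neurons and muscle had a peak in 6 of 26, or 23.1% (11.0 to 42.1), with 7 and 8 genes in replicates 1 and 2. Their median eligible sequence was 5.82 kb, against 8.82 kb for all genes, and their density of 30.6 per Mb was close to the background. The strongest were at Tnnt2, a cardiac troponin gene, with 352, at the embryonic myosin gene Myh3 with 241 and at Gad1, which encodes an enzyme of GABA synthesis, with 222.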

How the data were processed

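The authors deposited CTCF peak lists on mm10 in narrowPeak layout: 1 per replicate (300000 peaks each) and lists thresholded by the irreproducible discovery rate, named optimal (50909) and conservative (49129). Their signal column is the deposited signal on an unstated scale, and the summit is an offset from the peak start. The peak caller and read mapping are not given in the sources used here, and depth is unknown, so no floor was computed. Tracks and controls were not used here.

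Summits were placed on GENCODE M21 with Python 3.11.15, pandas 2.3.3, numpy 2.4.6 and pysam 0.24.0. The motif search was tested on simulated sequence. Eligible bases and motif copies were counted exactly over every base that meets the rule. A match was called masked when at least 7 of its 14 bases were lower case. The longest transcript of the longest host numbered introns. Replicate values come from the 50909 strongest peaks of each replicate under the same rule.

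Members and lists were chosen with earlier results of these data known. Named genes are the 12 strongest peaks, the 8 hosts with most peaks and the 3 hosts per list with the strongest peak. Some of the genes this rule takes are not reported here. Shares carry Wilson 95% intervals and differences Newcombe 95% intervals. Alternatives were the conservative list, peaks above the median, each replicate alone, other margins, host lengths and motif settings, another transcript, the mean signal, and, added after seeing the data, unmasked summits only.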

Additional observations from a re-analysis of the deposited data

Results flagged for a closer look

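The optimal list held 21 peaks on unplaced scaffolds. These lie outside every comparison above, because no distance to genes was measured there, and they are reported as a count only.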

How the results depend on the processing

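Of 69 alternatives over 8 results, 41 stayed within the spread of the replicates, or within 1.5 times for the count of peaks, and 28 did not. With optimal peaks above the median signal only, there were 6592 intronic peaks, in 21% of genes, with a motif share of 87.2%, a first intron share of 22.6%, motifs on the strand of the gene in 47.5%, convergent pairs in 22.2% and masked summits in 24.1%. With a margin of 500 bp, 34.6% of genes held a peak and the first intron share was 27.6%. With a margin of 2 kb these were 27.5% and 24.7%, the signal ratio of intronic to all peaks was 0.970, against 0.987 as reported, and convergent pairs were 22.9%. With hosts of at most 100 kb, 27.8% of genes held a peak, the signal ratio was 1.02 and the first intron share 27.0%. The ratio thus crossed 1 and sets intronic peaks neither above nor below all peaks. With at most 1 mismatch the motif share was 40.6%, motifs on the strand of the gene 48.2% and convergent pairs 21.9%. With at most 3 mismatches the motif share was 91.2%. The mean signal gave a ratio of 0.973, and the transcript with most exonic bases a first intron share of 23.9%. Leaving out repeat-masked summits gave a first intron share of 24.9%, motifs on the strand of the gene in 47.2% and convergent pairs in 22.9%. Leaving out 1 replicate gave motif shares of 68.2% to 77.1%, signal ratios of 0.968 to 0.981 and first intron shares of 26.1% to 26.4%. The cause of these shifts was not tested. No paired analysis was possible because there is 1 group. Both libraries carry the label of 1 biosample, depth is unknown, and weak peaks are the least supported.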

Other observations

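Matches that contain a CpG, the site of DNA methylation in mammals, made up 32.6% of unmasked matches at intronic peaks and 26.2% of repeat-masked ones. Unmasked matches with a CpG had a median signal of 151 and those without had 97.9. In repeats the medians were 57.1 and 54.6. The number of mismatches was not held equal in these comparisons, and its part in them was not tested. Methylation was not measured in the files used here.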
